A study of Mus musculus with 24 samples.

Results

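BCAM low cells are a sorted subset of mouse tracheal epithelium, and their libraries came in batch 2 and batch 1, which are compared here. All 8 libraries that the labels place in the BCAM low subset were used, of 24 in the series: libraries 1 to 5 are batch 1 and libraries 6 to 8 are batch 2. Every library was made with the SmartSeq2 protocol from 1000 cells sorted from the tracheae of naive, wild-type, female mice, and the series title names the strain as C57BL/6. BCAM high and differentiated epithelial cells, each with 5 libraries of batch 1 and 3 of batch 2, served as the comparison. The labels give no age, no treatment and no description of the sort gates, and none of the sources used here says what the batch number means. The labels do not say that the libraries of a group came from separate animals, so p-values measure only the spread between these samples, which may be technical.

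Basal cells are the stem cells of the tracheal lining: they rest on the basement membrane, carry the transcription factor p63 and the keratins 5 and 14, and give rise to secretory and multiciliated cells. BCAM, the basal cell adhesion molecule, is a receptor for laminin in that membrane. Multiciliated cells build motile cilia under the transcription factor FOXJ1, while club and goblet cells secrete proteins and mucins. Cells of the squamous-like hillocks carry the keratins 4 and 13.

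The 8 libraries carried the basal label in their RNA. Krt5 (keratin 5) was at 814, 985, 986, 1034 and 1121 CPM (counts scaled to a common library size) in batch 1 and at 698, 818 and 963 CPM in batch 2. In the differentiated libraries Krt5 reached at most 2.74 CPM. Trp63, which encodes p63, lay between 141 and 291 CPM in BCAM low cells and at no more than 26.9 CPM in differentiated cells. Bcam itself was at 224, 240, 386, 446 and 456 CPM in batch 1 and at 401, 416 and 428 CPM in batch 2, and this difference was not called (log2 difference 0.24 ± 0.22 SE, edgeR adjusted p = 0.58). Cyp2f2, the cytochrome P450 typical of club cells, was also high in every BCAM low library, at 13459 to 27173 CPM. Of the Y-linked genes checked against the label female, Ddx3y, Eif2s3y and Uty stayed at or under 4.32 CPM in all 8 libraries, while Kdm5d was at 6.90 to 25.2 CPM in batch 1 and 9.66 to 15.1 CPM in batch 2.

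Several properties of the libraries moved with the batch. Totals of estimated counts were 1824619 to 2596092 in batch 2 and 3517797 to 4440072 in batch 1, and genes with a count numbered 15757 to 16804 against 17703 to 19619. At equal depth the number of genes was 15757 to 16400 against 16491 to 17863. Mitochondrial transcripts took 1.73% to 3.80% of the counts in batch 2 and 4.71% to 6.62% in batch 1. None of these ranges overlapped, and each gave p = 0.0357, the smallest that an exact two-sided permutation test of 3 against 5 libraries can give. With all libraries thinned to the smallest total, 1121 genes were called between the batches, 1027 of them among the 1153 called genes of the full depth that could be tested. The part of the other properties in the results that follow was not tested. A principal component analysis of log2 CPM put 39.9% of the variance on a first component that held batch 1 at −39.7 to −27.8 and batch 2 at 45.5 to 63.7.

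Between the batches, 1224 of 12855 tested genes (9.52%) were called at an adjusted p under 0.05 in edgeR's quasi-likelihood test, the threshold used throughout. Of these, 712 (5.54%) were higher in batch 2 and 512 (3.98%) were lower. The rises were larger than the falls: 453 genes rose and 235 fell at least 2-fold, and 114 rose and 13 fell at least 16-fold. The median log2 difference over all tested genes was −0.03, with 47.4% above 0. In 671 of the 712 higher genes, all 3 batch 2 libraries lay above all 5 of batch 1, against 9.75% of all tested genes. In 481 of the 512 lower genes, they lay below, against 8.53% of all tested genes. The number called depended on 2 libraries: 608 genes were called without library 6 and 705 without library 7.

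The highest-ranking rise was in Chil4, which encodes a secreted chitinase-like protein of the airway (chromosome 3, 106201490 to 106219507, GENCODE M21 on GRCm38). Chil4 was at 0, 0, 0.952, 2.28 and 48.9 CPM in batch 1 and at 44154, 50613 and 51394 CPM in batch 2. In batch 2 this gene alone took 3.88%, 5.06% and 5.63% of all counts. The log2 difference was 12.15 ± 1.95 (SE, adjusted p = 0.013), with library 5 holding nearly all the Chil4 counts of batch 1. Near-identical copies of chitinase-like genes can exchange reads, so the values of Chil4 and its neighbour Chil5 (log2 difference 4.87 ± 0.69, adjusted p = 0.00011) are uncertain.

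Clca1, a secreted regulator of a chloride channel found in goblet cells, was at 1.78, 4.21, 12.8, 13 and 45.3 CPM in batch 1 and at 3496, 3647 and 4196 CPM in batch 2 (log2 difference 7.94 ± 0.97, adjusted p = 0.0045). The gene lies on chromosome 3 from 145003817 to 145032776. Pla2g4c, a cytosolic phospholipase A2, was at 0 to 1.53 CPM in batch 1 and at 180, 197 and 219 CPM in batch 2 (7.65 ± 0.32, adjusted p = 1.2e-10). Fer1l6, a member of the ferlin family of membrane proteins, was at 0 to 2.38 CPM and then at 142, 152 and 184 CPM (7.08 ± 0.35, adjusted p = 1.6e-09). For these genes every batch 2 library stood far above every batch 1 library.

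Gsdmc2, of the pore-forming gasdermin family, was at 0 CPM in 4 libraries of batch 1 and at 1.11 CPM in library 5, against 289, 326 and 442 CPM in batch 2 (log2 difference 10.33 ± 0.51, adjusted p = 1.4e-06). Its paralogue Gsdmc3 was at 0 to 1.33 CPM against 35.4, 55.3 and 77.9 CPM, and the split of reads between the copies is uncertain. The remaining genes among the 10 largest rises were Cdhr3, Cdhr4, Syt5 and Tmem212. Syt5, a synaptotagmin, had no count in batch 1 and was at 4.69, 11.1 and 18.4 CPM in batch 2, at least 79.4-fold higher with 3 counts assumed for the whole of batch 1. Tmem212, a transmembrane protein, had 3 counts in batch 1, all in library 1, and 277 in batch 2, a ratio of 293 (exact 95% interval 99.3 to 1431, counting error only).

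Other secreted proteins of mucosal tissues were chosen for mention after their values were seen. Retnla, a resistin-like cytokine, was at 0 to 3.64 CPM in batch 1 and at 106, 107 and 151 CPM in batch 2 (log2 difference 6.58 ± 0.52, adjusted p = 4.6e-05). Itln1, an intelectin, was at 0 to 1.59 CPM and then at 44.3, 52.3 and 82.1 CPM (6.31 ± 0.50, adjusted p = 8.15e-07). Fcgbp, a mucus protein that binds IgG, was at 5.85 to 26.6 CPM and then at 368, 390 and 425 CPM (4.58 ± 0.45, adjusted p = 0.00085).

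**Figure D1:**
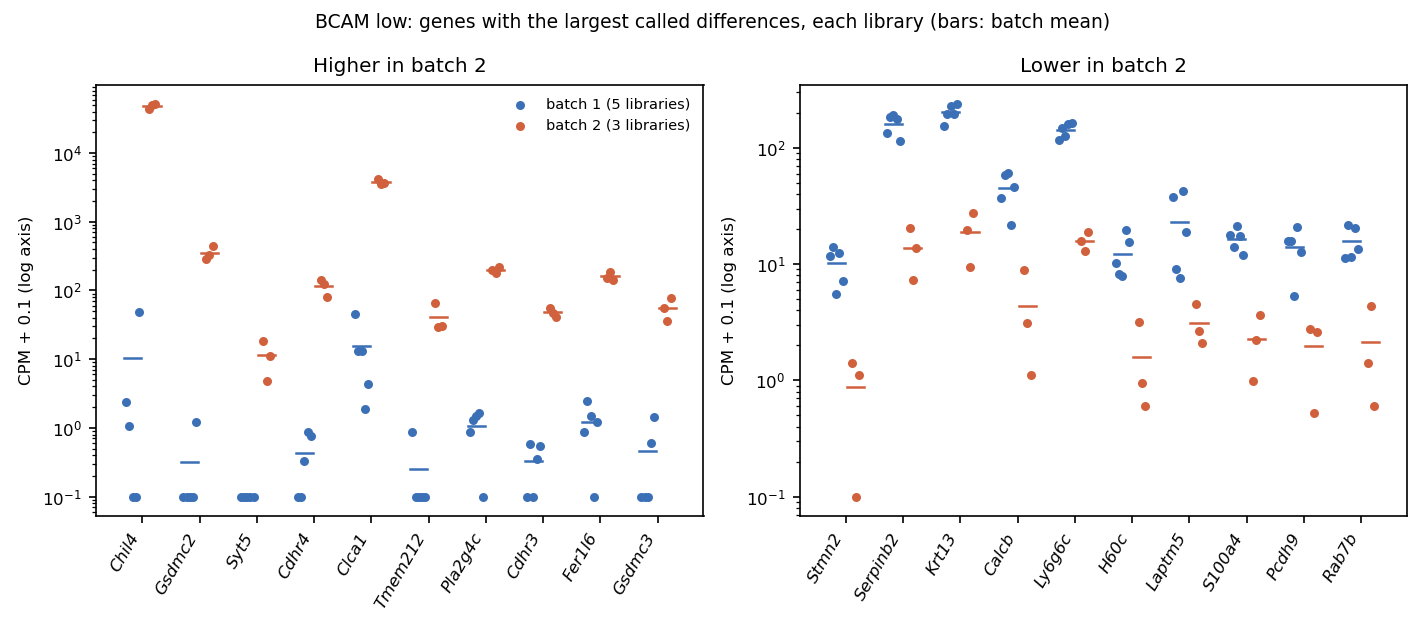
Each point is one BCAM low library; the vertical axes show CPM + 0.1 on a log scale, and bars mark the batch means. The left panel holds the 10 genes with the largest rises in batch 2 and the right panel those with the largest falls, among called genes whose batches do not overlap and with a mean of at least 10 CPM in the higher batch. Chil4 reaches 51394 CPM, and Syt5 sits at 0 in all 5 libraries of batch 1.

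The falls were smaller in size and led by different kinds of gene. Krt13, the keratin that marks hillock cells (chromosome 11, 100117327 to 100121566), was at 155, 195, 196, 227 and 237 CPM in batch 1 and at 9.37, 19.3 and 27.1 CPM in batch 2 (log2 difference −3.45 ± 0.28, adjusted p = 5.2e-07). Serpinb2, an inhibitor of plasminogen activators, was at 114 to 190 CPM and then at 7.24, 13.6 and 20.2 CPM (−3.55 ± 0.29, adjusted p = 7e-07). Ly6g6c, a surface protein of the Ly6 family, was at 116 to 164 CPM and then at 12.8, 15.8 and 18.6 CPM (−3.18 ± 0.21, adjusted p = 5.3e-09). All 3 belong to the suprabasal and hillock list, and in each the batches were separated by a wide gap.

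Stmn2, a microtubule regulator of neurons, was at 5.46 to 13.8 CPM in batch 1 and at 0, 1.01 and 1.32 CPM in batch 2 (log2 difference −3.66 ± 0.71, adjusted p = 0.002). Calcb, which encodes the beta form of calcitonin gene-related peptide, was at 21.4 to 60.5 CPM and then at 1.01, 2.98 and 8.79 CPM (−3.36 ± 0.54, adjusted p = 0.0024). S100a4, a calcium-binding protein, was at 12 to 20.9 CPM and then at 0.879, 2.13 and 3.52 CPM (−2.91 ± 0.47). H60c, Laptm5, Pcdh9 and Rab7b completed the 10 largest falls, with log2 differences of −3.0 to −2.88; the call of Laptm5 was lost without library 6, 7 or 8 (adjusted p = 0.11 to 0.15). Cav1, the coat protein of caveolae, chosen after its values were seen, was at 545, 691, 756, 870 and 895 CPM against 112, 112 and 136 CPM (−2.65 ± 0.18, adjusted p = 6.5e-09).

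Genes of the motile cilium rose together in batch 2. Of 40 listed axoneme and motor genes, 36 passed the filter on low counts; 32 of these were called higher and 1 lower, against 5.54% and 3.98% of all tested genes. Their median log2 difference was 3.92, and 35 of 36 were above 0. The filter took batch as the group, so genes near the floor in batch 1, such as Dnah5 and Dnaic2, passed through their batch 2 level. For such genes a rise was a condition of being tested, so these counts and the median are partly set by the filter. In all 32 rising genes the 3 batch 2 libraries lay above all 5 of batch 1. The same held in 671 of all 712 genes called higher, so it adds little to the calls. In sorted bulk samples, more cells of a type and more RNA per cell cannot be told apart.

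Foxj1, the transcription factor that switches on motile cilium genes (chromosome 11, 116330704 to 116335399), was at 0.476, 0.910, 1.26, 1.27 and 4.43 CPM in batch 1 and at 41.7, 55.3 and 61.4 CPM in batch 2 (log2 difference 4.93 ± 0.43, adjusted p = 9.8e-07). Of 15 listed regulators of multiciliated cell fate, 10 were tested, and Foxj1 was the only one called. Rfx2 and Rfx3, factors of the RFX family that bind cilium gene promoters, had log2 differences of 0.19 (adjusted p = 0.70) and −0.19 (adjusted p = 0.83). Ccno, needed to multiply basal bodies, was at 3.54 to 10.5 CPM in batch 1 and at 8.04, 10.1 and 26.4 CPM in batch 2 (adjusted p = 0.19).

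The RFX core motif, GTTGCC or GGCAAC on the other strand, was searched in the 250 bases before the start of each gene in RefSeq's promoter table (GRCm38.p6). It was present in 14 of 38 promoters of the tested cilium genes (36.8%), which cover 33 of the 36 genes, and in 3425 of all 32851 promoters (10.4%). A match is a description of these letters and not of a bound site. In the windows below the motif begins 11 to 35 bases before the start; they are shown because the cilium list holds the most uniform rise; capitals mark 1 match in each, and all run 5′ to 3′ on the gene's strand. Tekt1 holds a further match, gttgcc, left in lower case, that begins 15 bases before the start.
Dnaic2, chr11:114727346-114727418, plus strand: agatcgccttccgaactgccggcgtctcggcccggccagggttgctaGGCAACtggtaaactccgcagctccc
Drc1, chr5:30281335-30281392, plus strand: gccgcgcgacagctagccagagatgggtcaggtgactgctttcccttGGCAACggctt
Hydin, chr8:110266917-110266976, plus strand: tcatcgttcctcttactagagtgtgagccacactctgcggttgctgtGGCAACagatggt
Pifo, chr3:106001498-106001556, minus strand: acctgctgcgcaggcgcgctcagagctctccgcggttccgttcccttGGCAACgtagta
Tekt1, chr11:72361883-72361964, minus strand: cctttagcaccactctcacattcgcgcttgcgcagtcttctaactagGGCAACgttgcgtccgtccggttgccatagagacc

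The genes behind these windows all rose. Dnaic2, an intermediate chain of the outer dynein arm, was at 0, 0, 0, 1.01 and 1.27 CPM in batch 1 and at 19.1, 19.8 and 25.1 CPM in batch 2 (log2 difference 5.50 ± 0.73). Drc1, of the complex that regulates dynein, was at 0.253 to 2.62 CPM and then at 12.1, 21.7 and 39.1 CPM (4.77 ± 0.59, adjusted p = 2.6e-05). Pifo, a protein of ciliogenesis, was at 0 to 2.44 CPM and then at 27.7, 28.1 and 28.6 CPM (4.47 ± 0.52, adjusted p = 1e-05). Hydin, of the central pair, had a log2 difference of 3.26 ± 0.80 (adjusted p = 0.033), and Tekt1, a tektin that lines the microtubules, one of 4.59 ± 0.99 (adjusted p = 0.018).

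Other structural genes of the list rose as well. Dnah5, a motor heavy chain of the outer arm, was at 0, 0.254, 1.11, 1.19 and 1.36 CPM in batch 1 and at 28.1, 36.5 and 43.5 CPM in batch 2 (log2 difference 5.43 ± 0.48, adjusted p = 3.9e-07). Rsph4a, of the radial spoke head, was at 0 to 2.88 CPM and then at 15.6, 27.7 and 49.2 CPM (5.06 ± 0.67, adjusted p = 0.00028). Cfap52 was at 0 to 2.03 CPM and then at 13.1, 22.8 and 26.0 CPM (4.96 ± 0.64). Outside the list, Cdhr3, a cadherin of multiciliated cells and a receptor for rhinovirus C in humans, was at 0 to 0.476 CPM and then at 41.2, 46.9 and 55.3 CPM (7.45 ± 0.45, adjusted p = 1.6e-09). Its relative Cdhr4 was at 0 to 0.763 CPM and then at 80.4, 125 and 142 CPM.

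One listed gene went the other way. Tppp3, a tubulin-binding protein, was at 323, 394, 404, 475 and 487 CPM in batch 1 and at 191, 220 and 326 CPM in batch 2 (log2 difference −0.76 ± 0.18, adjusted p = 0.0099), and library 6 overlapped batch 1. Summed over the list, cilium RNA was 1110 to 1268 CPM in batch 1 and 2853, 1777 and 1627 CPM in libraries 6, 7 and 8. This sum includes Tppp3, which alone held a large part of it in batch 1. The number of rising genes was 27 to 32 when any 1 library was left out and 30 with all libraries thinned to equal depth.

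**Figure D2:**
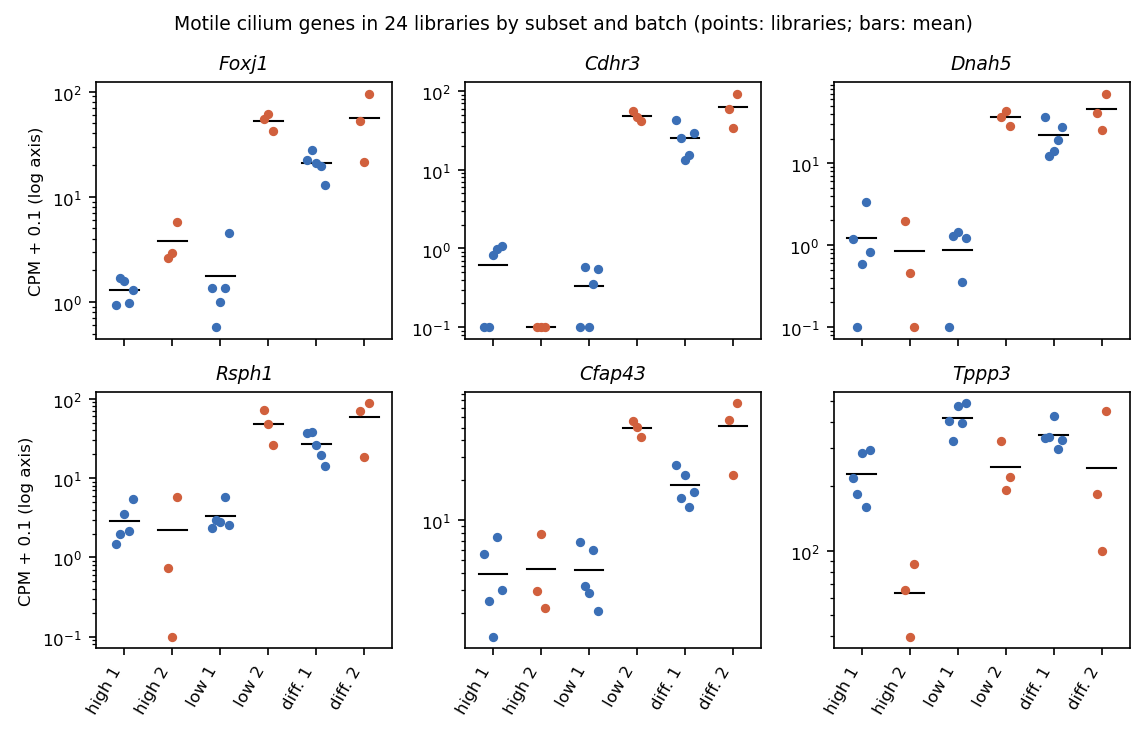
CPM + 0.1 on a log axis for 6 motile cilium genes in all 24 libraries; each point is a library, the horizontal positions give subset and batch, blue is batch 1, orange is batch 2, and bars are means. Foxj1 in BCAM low cells goes from at most 4.43 CPM in batch 1 to at least 41.7 CPM in batch 2, a level that overlaps differentiated cells, while Tppp3 is lower in batch 2.

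Genes of secretory cells moved in both directions. Of 24 tested club and goblet genes, 8 were called higher and 3 lower (against 5.54% and 3.98% of all tested genes), with a median log2 difference of 0.85 and 20 above 0. The risers include goblet genes and antimicrobial proteins. Bpifb1, a secreted protein of the BPI fold family, was at 5.09, 5.59, 10.7, 14.4 and 55.5 CPM in batch 1 and at 1473, 1484 and 1862 CPM in batch 2 (6.44 ± 0.87, adjusted p = 0.0068). Reg3g, an antibacterial lectin, was at 234, 478, 774, 826 and 839 CPM and then at 9744, 10365 and 11048 CPM (4.04 ± 0.42, adjusted p = 0.0016). Muc5ac, the main inducible gel-forming mucin of goblet cells, was at 0.227 to 4.55 CPM and then at 51.0, 59.7 and 173 CPM (5.74 ± 0.73, adjusted p = 0.0031).

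Spdef, a transcription factor of goblet cells, was at 3.04, 3.76, 7.51, 8.65 and 9.76 CPM in batch 1 and at 36.9, 39.2 and 44.3 CPM in batch 2 (log2 difference 2.61 ± 0.33, adjusted p = 2.6e-05). Agr2, a disulphide isomerase that folds mucins, was at 46.9 to 94.6 CPM and then at 247, 314 and 426 CPM (2.25 ± 0.26). Cldn10, a claudin of secretory cells, rose by 2.95 ± 0.20 (adjusted p = 1e-08), and Msln, mesothelin, by 1.70 ± 0.16. Cbr2, the carbonyl reductase of club cells, rose from 6813 to 8398 CPM in batch 1 to 11758 to 12582 CPM in batch 2 (0.65 ± 0.12, adjusted p = 0.0015).

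The falling members included Cyp2f2 and Muc16. Cyp2f2 was at 18057, 19565, 20356, 23543 and 27173 CPM in batch 1 and at 13459, 14174 and 15770 CPM in batch 2 (log2 difference −0.59 ± 0.14, adjusted p = 0.012). Muc16, a membrane-bound mucin, was at 805 to 1128 CPM and then at 360, 376 and 545 CPM (−1.13 ± 0.17, adjusted p = 0.00013).

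Scgb1a1, which encodes the main secretoglobin of club cells, was at 235, 480, 917, 1198 and 1859 CPM in batch 1 and at 4761, 6323 and 8523 CPM in batch 2. The libraries did not overlap, but the wide spread in batch 1 left it just outside the threshold (2.80 ± 0.66, adjusted p = 0.052); it was called without library 3 or 4 (adjusted p = 0.038 in both), with DESeq2 (adjusted p = 0.00014) and in the fit over all 24 libraries (adjusted p = 0.022). Muc5b, the other gel-forming mucin, was at 0.254 to 73.9 CPM and then at 409, 466 and 722 CPM (adjusted p = 0.091). In the submucosal gland list 8 of 18 genes were tested and 3 called, all higher (against 5.54% of all tested genes). Pigr, the receptor that carries IgA across epithelium, was at 13, 27.7, 44.7, 52.5 and 75.6 CPM and then at 530, 534 and 543 CPM (3.65 ± 0.50, adjusted p = 0.0063). The other two, Ltf (lactoferrin) and Gp2, lost their call without library 2, 4 or 6, among others (adjusted p = 0.055 to 0.26 for these).

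In the basal list 1 of 20 tested genes was called higher and 1 lower, shares near those of all tested genes (5.54% and 3.98%), and the median was −0.29. Trp63 was at 141, 157, 163, 174 and 213 CPM in batch 1 and at 243, 244 and 291 CPM in batch 2 (log2 difference 0.61 ± 0.15, adjusted p = 0.013), a call lost without library 7 (adjusted p = 0.11), in the fit over all 24 libraries (adjusted p = 0.12) and with limma on TPM. Snai2, a repressor of the epithelial state, fell by 0.99 (adjusted p = 0.023), a call lost without any one of libraries 5 to 8 (adjusted p = 0.056 to 0.13). Krt5 had a log2 difference of −0.26 (adjusted p = 0.29), Krt14 one of −0.32 (adjusted p = 0.64) and Ngfr, the nerve growth factor receptor of basal cells, one of 0.36 (adjusted p = 0.27).

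Of 22 tested suprabasal and hillock genes, 11 fell and 2 rose, against 3.98% and 5.54% of all tested genes. The median was −0.91, and 20 were below 0. Krt4, the partner of Krt13, was at 1243, 1251, 1306, 1389 and 1409 CPM in batch 1 and at 597, 758 and 780 CPM in batch 2 (log2 difference −0.89 ± 0.13, adjusted p = 0.00017). Ecm1, an extracellular matrix protein, was at 204 to 332 CPM and then at 56.7, 92.0 and 109 CPM (−1.80 ± 0.21). Upk3bl, an uroplakin-like protein, fell by 1.57, Cldn4, a tight junction claudin, by 1.13, and Lgals3, galectin 3, by 0.88. In the fit over all 24 libraries, with one spread for all subsets, Krt4 was no longer called (adjusted p = 0.10).

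The pair that rose in this list are known from cornified and barrier epithelia. Sprr2a3, a small proline-rich protein of the cornified envelope with close copies in the genome, was at 1.26, 1.78, 2.50, 5.47 and 5.76 CPM in batch 1 and at 121, 125 and 142 CPM in batch 2 (log2 difference 5.23 ± 0.32, adjusted p = 4.7e-08). Spink5, an inhibitor of serine proteases, was at 0.714 to 4.58 CPM and then at 7.54, 27.7 and 34.3 CPM (2.99 ± 0.51, adjusted p = 0.00072). Among 9 simple epithelial genes 3 fell and none rose, against 3.98% and 5.54% of all tested genes. Krt19, 1 of the 3, lost its call in 14 of 17 settings. Krt7 was at 1074, 1165, 1175, 1192 and 1399 CPM and then at 377, 412 and 669 CPM (−1.31 ± 0.18, adjusted p = 5.8e-05).

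Markers of other cells that a tracheal sort could hold were also examined. Of 16 tested immune genes, 7 were called lower (against 3.98% of all tested genes) and none higher, with a median of −2.06. The class II gene H2-Aa was at 47.1, 49.4, 68.8, 92.8 and 107 CPM in batch 1 and at 8.04, 9.37 and 14.5 CPM in batch 2 (log2 difference −2.77 ± 0.33, adjusted p = 3.8e-05), and H2-Eb1 fell by 2.48 ± 0.36 (adjusted p = 0.00035). Tyrobp, an adaptor of myeloid receptors, fell by 2.62, a call lost without library 4 (adjusted p = 0.053) or library 7 (adjusted p = 0.07). Ptprc, the pan-leukocyte marker CD45, was at 0.238 to 7.96 CPM against 0.426 to 3.07 CPM and was not called (adjusted p = 0.21). The immune count was 4 without library 7 and likewise without library 8. Summed immune RNA, most of it Lyz2, was 745 to 2214 CPM in batch 1 and 1341 to 2131 CPM in batch 2.

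Of 7 tested tuft cell genes, 2 were called lower, against 3.98% of all tested genes. Pou2f3, the factor that defines tuft cells, was at 5.56, 8.09, 8.86, 9.15 and 12.5 CPM in batch 1 and at 0, 0.426 and 1.32 CPM in batch 2 (log2 difference −3.81 ± 0.74, adjusted p = 0.002). The summed tuft list was 22.1 to 177 CPM in batch 1, with library 2 at the top, and 13.6 to 18.3 CPM in batch 2. Of 7 tested ionocyte genes 2 rose and none fell, against 5.54% and 3.98% of all tested genes. The median was 0.20, with 4 genes above 0 and 3 below. Both risers are subunits of the proton pump, Atp6v1c2 (0.89, adjusted p = 0.0016) and Atp6v1b1 (1.23). The call of Atp6v1b1 was lost without library 7 or 8 (adjusted p = 0.099 and 0.13) and in the fit over all 24 libraries (adjusted p = 0.11). Limma on TPM called neither Atp6v1c2 (adjusted p = 0.23 to 0.24) nor Atp6v1b1 (adjusted p = 0.37 to 0.39).

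Of 3 tested thyroid genes 1 was called higher and 1 lower, against 5.54% and 3.98% of all tested genes. The lower one, Nkx2-1, had a mean of 29.4 CPM in batch 1 and 15.6 CPM in batch 2 (log2 difference −0.92, adjusted p = 0.040). Nkx2-1 lost its call in 9 of 17 settings. The higher one was Tg, and thyroid RNA was uneven within batch 2. Tg, thyroglobulin, was at 1.19 to 5.59 CPM in batch 1 and at 220, 173 and 3.02 CPM in libraries 6, 7 and 8; its call (log2 difference 5.57 ± 1.16, adjusted p = 0.034) was lost when any 1 of libraries 1 to 7 was left out (adjusted p = 0.068 to 0.12). In the differentiated libraries Tg had a mean of 17609 CPM in batch 1 and 78176 CPM in batch 2 (adjusted p = 0.099). Library 7 alone held the parathyroid hormone gene Pth (262 CPM) and the granule protein Chga (190 CPM). The erythrocyte list summed to 1554 CPM in library 2 and to at most 89.5 CPM in any other. No endothelial, smooth muscle, chondrocyte or erythrocyte gene was called; in the fibroblast list Fn1 rose by 1.24 (adjusted p = 0.00093) and Dcn fell by 1.41 (adjusted p = 0.024), and Dcn lost its call without library 3 or 7 (adjusted p = 0.084 and 0.094). Fn1 lost its call in the fit over all 24 libraries (adjusted p = 0.061) and with limma on TPM (log2 difference 0.72 to 0.77, adjusted p = 0.26). The part of these cells in the other results was not tested.

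**Figure D3:**
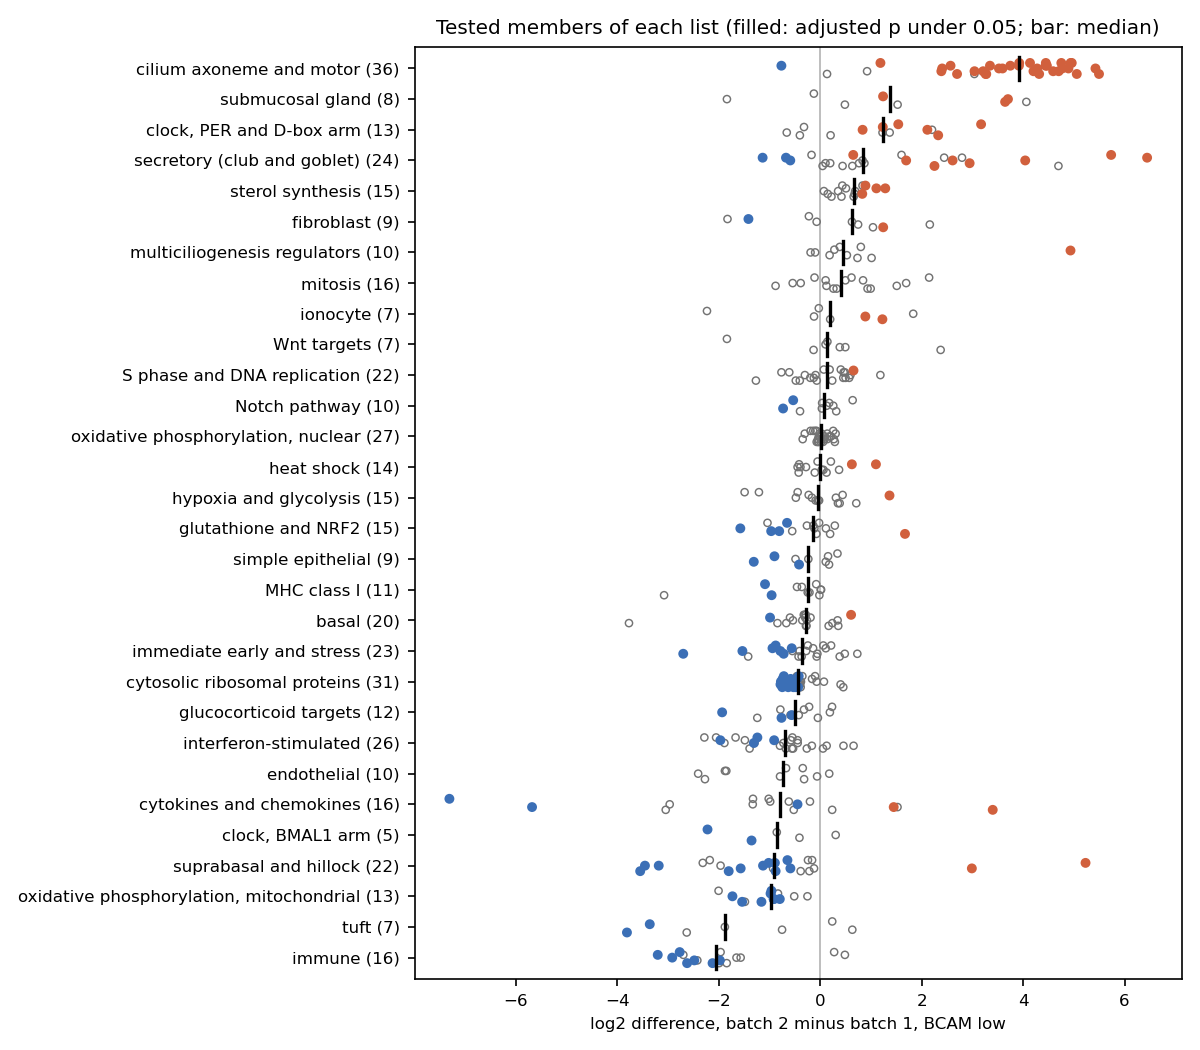
Log2 difference of batch 2 minus batch 1 in BCAM low cells for every tested member of the lists with at least 5 tested members, given in parentheses; filled points have an adjusted p under 0.05 (orange higher, blue lower), open points do not, and bars are medians. The cilium list has 32 filled orange points around a median of 3.92, and the immune list has the lowest median, −2.06. The points furthest left, Il1b and Ccl5, have at most 1 count in batch 2, so their position depends on the prior count.

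Clock genes split by arm. In mammalian cells BMAL1 (Arntl) and its partners drive the PER, CRY and REV-ERB genes and the D-box factors, which feed back on them. Arntl was at 111, 117, 123, 143 and 150 CPM in batch 1 and at 35.6, 52.4 and 63.8 CPM in batch 2 (log2 difference −1.35 ± 0.20, adjusted p = 0.00011). Npas2, a partner of BMAL1, was at 22.1, 24.6, 29.5, 30.4 and 32.5 CPM and then at 4.83, 5.11 and 8.04 CPM (−2.22 ± 0.32, adjusted p = 8.6e-05), and limma on TPM did not call it (adjusted p = 0.062 to 0.073). The remaining 3 genes of this arm were not called.

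In the PER and D-box arm 6 of 13 genes were called higher (against 5.54% of all tested genes) and none lower, with a median of 1.23. Per3 (chromosome 4, 151003652 to 151044665) was at 16.6, 27.3, 31.5, 34.7 and 35.9 CPM in batch 1 and at 119, 154 and 167 CPM in batch 2 (log2 difference 2.33 ± 0.21, adjusted p = 5.2e-07). Per2 was at 19.2, 22.8, 25.7, 28.1 and 35.3 CPM and then at 66.5, 71.4 and 91.4 CPM (1.54 ± 0.21). Nr1d2, the repressor REV-ERB beta, was at 16.2 to 35.0 CPM and then at 82.4, 90.5 and 115 CPM (2.11 ± 0.23). Dbp, a D-box activator, was at 1.02 to 3.54 CPM and then at 12.4, 17.6 and 20.6 CPM (3.17 ± 0.49, adjusted p = 0.00023), and every library of batch 2 was above every one of batch 1 in each of these genes. Cry2 rose by 1.23 and Tef by 0.84. Per1 was at 82.1 to 137 CPM against 60.2, 66.5 and 119 CPM (−0.32, adjusted p = 0.45).

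The E-box CACGTG, which reads the same on both strands and is the core element bound by BMAL1 and CLOCK, was found within 250 bases before the start in 5 of 12 promoters of the PER and D-box arm (41.7%), covering Bhlhe41, Ciart, Per1 and Tef, and in 6.02% of all RefSeq promoters. Per2 and Bhlhe40 were not analysed here for this motif. Of the genes with a match, Tef was the one called in BCAM low cells, and one of its promoter windows is shown for that reason, with the motif in capitals.
Tef, chr15:81802499-81802598 (GRCm38.p6), plus strand: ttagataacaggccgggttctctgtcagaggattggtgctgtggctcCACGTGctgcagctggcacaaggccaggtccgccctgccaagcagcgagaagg

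**Figure D4:**
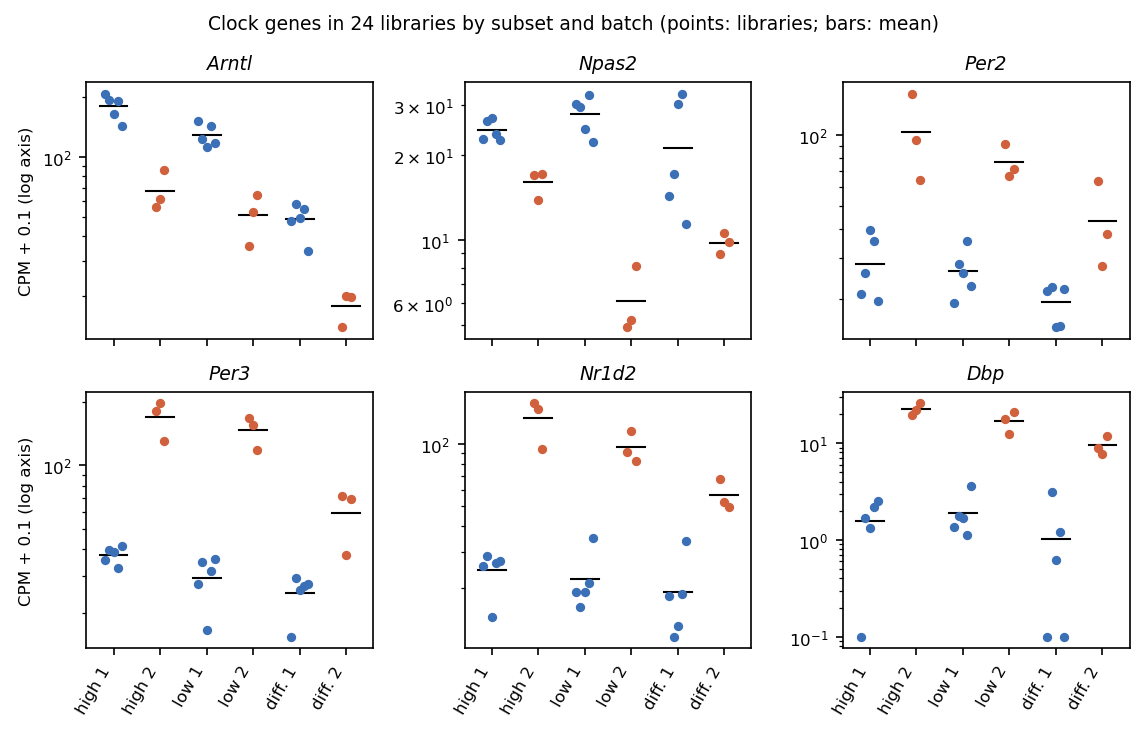
CPM + 0.1 on log axes for 6 clock genes in all 24 libraries; points are libraries (blue batch 1, orange batch 2), bars are means, and horizontal positions give subset and batch. In BCAM low cells Arntl and Npas2 are lower in all 3 batch 2 libraries, and Per2, Per3, Nr1d2 and Dbp are higher in all 3.

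Immediate early genes, which respond quickly to stress and to cell dissociation, had 7 of 23 tested members called lower and none higher, against 3.98% and 5.54% of all tested genes, with a median of −0.36. Zfp36, which destabilises cytokine mRNAs, was at 533, 551, 568, 636 and 696 CPM in batch 1 and at 142, 174 and 305 CPM in batch 2 (log2 difference −1.53 ± 0.21, adjusted p = 0.00018). Fos was at 3153, 3180, 3717, 4024 and 4171 CPM and then at 1739, 1870 and 2757 CPM (−0.78 ± 0.16, adjusted p = 0.0032), and Klf6 fell by 0.94 ± 0.16. Egr1 (−0.24, adjusted p = 0.43) and Atf3 (−0.42, adjusted p = 0.13) of the same list were not called. With limma on TPM, Fos (adjusted p = 0.15 to 0.16) and Klf6 at the smaller pseudocount (adjusted p = 0.058) were not called. Among 12 glucocorticoid targets 3 fell, against 3.98% of all tested genes. The metallothionein Mt1 was at 129 to 182 CPM against 83.0, 89.9 and 101 CPM (−0.76, adjusted p = 0.0049), and limma on TPM did not call it (adjusted p = 0.11 to 0.12). Dusp1 lost its call in 8 of 17 settings and Pdk4 in 4.

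Interferon and antigen presentation genes were called lower where they were called. Of 26 interferon-stimulated genes 4 fell (against 3.98% of all tested genes) and none rose, with a median of −0.70; Ifit1, which binds foreign RNA, was at 29.2 to 66.4 CPM against 17.1, 17.6 and 20.9 CPM (−1.31 ± 0.28, adjusted p = 0.0046; limma on TPM, adjusted p = 0.081 to 0.082). Oasl2 and Xaf1, 2 of the 4 interferon-stimulated genes that fell, each lost their call in 8 of 17 settings. B2m, the light chain of class I molecules, was at 256, 288, 305, 326 and 347 CPM and then at 123, 156 and 192 CPM (−0.96 ± 0.16, adjusted p = 0.00058). It was 1 of 2 falling genes among 11 of class I (against 3.98% of all tested genes), the other being H2-T23 (−1.09). Of 16 tested cytokine and chemokine genes 2 rose and 3 fell, against 5.54% and 3.98% of all tested genes. Nfkbia, 1 of the 3 that fell, lost its call in 12 of 17 settings. Cxcl17, a mucosal chemokine, was at 102, 121, 138, 142 and 170 CPM and then at 337, 371 and 397 CPM (1.45 ± 0.16, adjusted p = 3.4e-06). Il1b had 115 counts in batch 1 and none in batch 2, at least 12.1-fold lower with 3 counts assumed for the whole of batch 2 (adjusted p = 0.015).

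RNA of both the mitochondrial genome and the cytosolic ribosome was lower in batch 2. Of 13 mitochondrial genes for respiratory chain subunits 8 fell (against 3.98% of all tested genes), and all 13 were below 0, with a median of −0.96. The complex I subunit mt-Nd2 was at 1098, 1113, 1137, 1232 and 1476 CPM in batch 1 and at 304, 385 and 409 CPM in batch 2 (−1.73 ± 0.15, adjusted p = 3.9e-07), and mt-Nd1 fell by 0.80 (adjusted p = 0.0018). In contrast mt-Co1, a subunit of complex IV, was at 8358 to 11566 CPM against 6074, 8534 and 8781 CPM (−0.25, adjusted p = 0.35). None of the 27 nuclear respiratory chain genes was called by edgeR, and their median was 0.02.

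Of 31 cytosolic ribosomal protein genes 15 fell, against 3.98% of all tested genes, and none rose, with a median of −0.44. Rplp1 was at 1123, 1147, 1177, 1223 and 1638 CPM in batch 1 and at 702, 744 and 760 CPM in batch 2 (−0.78 ± 0.15, adjusted p = 0.0014), and Rps3 fell by 0.63 (adjusted p = 0.0033). This count was not stable: limma on TPM, which changes test and unit together, called 1 ribosomal gene at its lowest, and leaving out library 6, 7 or 8 gave 8.

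Metabolic lists were called in part. All 15 sterol synthesis genes were above 0, with a median of 0.66, and 4 rose (against 5.54% of all tested genes), among them Sqle, squalene epoxidase (10.9 to 18.6 CPM against 30.7, 32.0 and 50.1 CPM, 1.28 ± 0.27, adjusted p = 0.0034), which was lost without library 6 (adjusted p = 0.066), and Insig1 (1.11, adjusted p = 0.0039), which was lost without library 7 (adjusted p = 0.052). In the glutathione and NRF2 list 1 of 15 genes rose and 4 fell, against 5.54% and 3.98% of all tested genes. Me1, the cytosolic malic enzyme, was at 55.7 to 74.8 CPM and then at 183, 191 and 238 CPM (1.67 ± 0.16, adjusted p = 5.2e-07), while the glutathione transferase Gstm2 was at 820 to 1062 CPM and then at 264, 309 and 340 CPM (−1.57 ± 0.14), a family whose copies can exchange reads. Pdk1, a kinase that limits pyruvate oxidation, was called in the hypoxia list (1.36, adjusted p = 0.003), alone of 15 genes there; limma on TPM did not call it (adjusted p = 0.11 to 0.13). Mitosis genes (16 tested) and Wnt targets (7 tested) gave no call by edgeR, and S phase genes (22 tested) gave 1, Slbp, which was lost without library 5, 6 or 7.

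The batch difference was then compared across subsets in a fit over all 24 libraries, on 13766 genes. BCAM high cells had 587 genes higher in batch 2 (4.26%) and 343 lower (2.49%), and differentiated cells had 1246 higher (9.05%) and 1257 lower (9.13%). For BCAM low cells the calls compared here are those of the fit to their own 8 libraries. The fit over all 24 libraries called 859 genes higher and 585 lower in BCAM low cells. Of the 712 genes that rose in BCAM low cells in their own fit, 216 (30.3%) also rose in BCAM high cells, which is 36.8% of the 587. Of the 512 that fell, 145 (28.3%) also fell in BCAM high cells, which is 42.3% of the 343. In opposite directions were 7 and 0 genes. With differentiated cells, 183 genes rose and 197 fell in both, while 79 rose in BCAM low cells and fell in differentiated cells and 39 did the reverse.

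The difference itself differed between BCAM low and BCAM high cells in 133 genes by an interaction test, 112 more positive in BCAM low cells (0.814%) and 21 more negative (0.153%). This count fell to 65 without BCAM low library 6, 73 without BCAM low library 7, 59 without BCAM high library 6 and 68 without BCAM high library 7. Cilium genes made up 24 of the 112. In BCAM high cells 39 cilium genes could be tested, 4 were called higher and 5 lower in batch 2, and the median was −0.62. These genes passed a filter over the libraries of all subsets, so some were near the floor in BCAM high cells. Dnaic2, for example, had no count in BCAM high batch 2, and such fitted values depend on the prior count. Foxj1 was at no more than 1.59 CPM in BCAM high batch 1 and at 2.51, 2.83 and 5.67 CPM in batch 2, so its log2 batch difference was larger in BCAM low cells by 3.34 ± 0.76 (adjusted p = 0.024). The list sum in BCAM high cells was 855 to 1157 CPM in batch 1 and 477 to 603 CPM in batch 2. It includes Tppp3 and the tubulin Tuba1a, and the part of each gene in it is not given here. Tuba1a, an alpha tubulin of the list, fell in BCAM high cells (−1.23, adjusted p = 0.0064) and rose in BCAM low cells (1.19 ± 0.19), a difference of 2.42 (adjusted p = 0.0016).

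The clock and the largest secretory rises were shared in direction with BCAM high cells. Per3 rose by 2.17 ± 0.21 there and Arntl fell by 1.41 ± 0.19, and no clock gene passed the interaction test between the basal subsets. Chil4 was at 0 to 179 CPM in BCAM high batch 1 and at 29147, 29910 and 32269 CPM in batch 2, with library 5 again the highest of batch 1. Clca1 was at 0 to 12.7 CPM and then at 772 to 918 CPM. Neither gene passed the interaction test (adjusted p = 0.78 and 0.96). Spdef differed: it was at 4.67 to 9.81 CPM and then at 3.77, 7.79 and 11.3 CPM in BCAM high cells, and the difference from BCAM low cells was 2.43 ± 0.56 (adjusted p = 0.028). Notch1, the receptor that steers basal cells towards secretory fate, was at 125, 147, 147, 155 and 183 CPM and then at 59.3, 91.2 and 125 CPM in BCAM low cells and at 114 to 145 CPM and then at 133, 153 and 162 CPM in BCAM high cells (difference −0.99 ± 0.25, adjusted p = 0.042). Within BCAM low cells the call of Notch1 as lower was lost in 7 of 17 settings. Among them were leaving out library 6 (−0.50, adjusted p = 0.18) and limma on TPM (−0.28 to −0.26, adjusted p = 0.75 to 0.76).

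Against differentiated cells the batch difference differed in 1382 genes, 815 more positive in BCAM low cells (5.92%) and 567 more negative (4.12%). Of the 24 secretory genes, 21 were among the more positive ones: in differentiated cells none rose and 13 fell, with a median of −1.65. Scgb1a1 went from a mean of 88860.5 CPM to 5298 CPM in differentiated cells (adjusted p = 0.0043). Of the cilium genes 15 rose and none fell in differentiated cells, with a median of 1.42, and 18 were more positive in BCAM low cells. Foxj1 was at 12.9 to 28.1 CPM in differentiated batch 1 and at 21.4, 51.9 and 95.5 CPM in batch 2, the range in which the BCAM low libraries of batch 2 lay. The share of positive calls was 59.0% with edgeR on counts, and 35.9% of 713 and 32.3% of 865 with limma on TPM, where test and unit both change and the median of all genes shifted by −0.33 and −0.27.

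**Figure D5:**
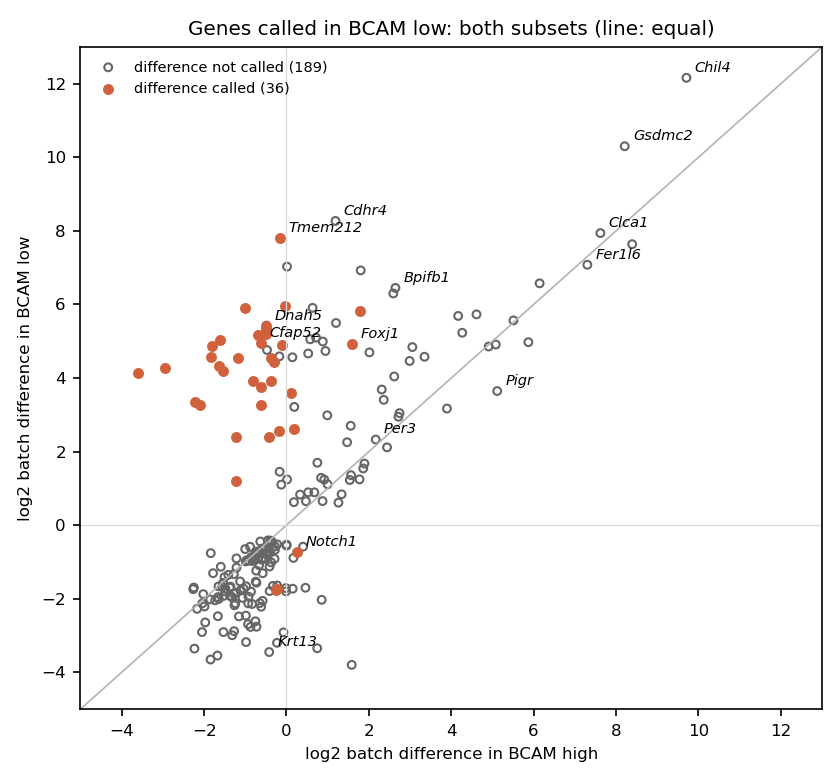
Log2 batch difference (batch 2 minus batch 1) in BCAM high cells on the horizontal axis and in BCAM low cells on the vertical axis. Drawn are 225 called genes of the lists and of the largest differences, and the line marks equal values. Genes with no count in a batch of either basal subset are not drawn, Cdhr3 and Dnaic2 among them. Filled points (36) differed between the subsets by the interaction test, and open points (189) did not pass it. Most filled points, Foxj1 among them, lie above the line, whereas Chil4, Clca1 and Per3 lie close to it or were not called different.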

How the data were processed

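Each library has its own deposited table. Per the file headers, its columns hold for every transcript the estimated counts and the TPM, beside lengths; the submitters' processing notes name kallisto (version 46.1, as written there), Picard and build GRCm39. The authors applied no normalization to the estimated counts that the labels record, while TPM, as deposited, correct for transcript length and add up to a fixed sum. Of 117497 transcripts, 116374 matched GENCODE M21 (GRCm38), which supplied symbols and coordinates; the rest held 0.317% to 0.594% of counts and were left out. Counts were summed over 35855 genes and rounded to whole numbers. SmartSeq2 does not mark strand, so a gene and its antisense partner cannot be told apart, and reads were amplified with no molecular identifiers stated, so that intervals and lower bounds account for counting alone.

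Batches were compared with edgeR 4.0.16 (R 4.3.3): quasi-likelihood F-test, robust, TMM factors, default filter on low counts, on the 8 BCAM low libraries with batch as the term and Benjamini-Hochberg (BH) adjustment over 12855 genes. Comparisons with the other subsets came from interaction terms of one fit to the 24 libraries, parameterised by subset and batch. Standard errors are the absolute log2 difference over the root of its F statistic. CPM use library sizes scaled by TMM. No paired test exists between the batches of BCAM low cells, because they share no library number. Library measures were compared with exact permutation tests (scipy 1.17.1). No pair of libraries of a group was identical or within sampling noise (chi-square per gene 11.2 to 52.5). Scripts were tested on simulated data.

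The members and the 39 gene lists (656 entries, 483 tested genes) were chosen with earlier results of these data known, and a list is described by its calls and its median over tested members beside those of all tested genes, with no test of the list. Named genes are label checks, the 10 largest called differences per direction with no overlap and at least 10 CPM in the higher batch, up to 4 called members per list, and 5 per interaction and direction, leaving out predicted symbols; other named genes are list members given for their role, or are said to be chosen afterwards. Alternatives were DESeq2 1.42.0, its size factors in edgeR, other filters, limma 3.58.1 on log2(TPM + 0.1) and log2(TPM + 1), leaving out each library, the fit over all libraries and, added after the depths were seen, counts thinned to the smallest total. Promoter letters come from RefSeq's promoter table, GRCm38.p6.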

Additional observations from a re-analysis of the deposited data

Results flagged for a closer look

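In 5 of 38 groups of values checked within BCAM low batch 1, 1 library stood apart from the other 4 by Dixon's criterion at the 95% level, which marks about 1 in 20 groups by chance. That rate does not hold for Gsdmc2 and Tmem212, which were at 0 CPM in the other 4 libraries, so that any count in 1 library meets the criterion. Library 5 was the high one for Chil4 (48.9 CPM), Foxj1 (4.43 CPM) and Gsdmc2 (1.11 CPM), and library 1 for Clca1 (45.3 CPM) and Tmem212 (0.759 CPM).

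The genes with the largest called differences between the batch effects of BCAM low and BCAM high cells were cilium genes on the positive side, each at 0 CPM in all 3 BCAM high libraries of batch 2, so their fitted log2 values depend on the prior count. They were Cdhr3 (11.18), Rp1 (9.72), Armc4 (9.52), Dnaic2 (9.38) and Spag8 (9.36). In BCAM low batch 2 Rp1 was at 6.82, 8.55 and 15.8 CPM, Armc4 at 9.05, 15.3 and 18.9 CPM, and Spag8 at 17.6, 18.7 and 19.8 CPM. On the negative side were Arg1, arginase 1 (−3.31), Sox9, a factor of gland and cartilage progenitors (−3.21), Areg, the growth factor amphiregulin (−2.57), Fam199x (−2.32) and the protease gene Tmprss4 (−1.85). Armc4 lost its call with limma on log2(TPM + 1), at 3.09 (adjusted p = 0.11). Leaving out libraries or changing the method ended the call of Fam199x in 16 of 32 settings (adjusted p up to 0.13), of Areg in 13 (up to 0.14), of Arg1 in 7 (up to 0.28), of Sox9 in 4 (up to 0.10) and of Tmprss4 in 4 (up to 0.12), with BCAM low libraries 6 and 7 among those that ended the calls of Fam199x, Arg1, Sox9 and Tmprss4. Sox9 was at 1.55 to 8.80 CPM in batch 1 and 0.439, 1.70 and 2.01 CPM in batch 2 of BCAM low cells, and at 2.95 to 7.44 CPM and then 8.49, 11.6 and 12.2 CPM in BCAM high cells. Areg was at 10.5 to 41.9 CPM and then 16.6, 26.4 and 40.4 CPM in BCAM low cells, and at 1.47 to 5.65 CPM and then 11, 24.8 and 34.2 CPM in BCAM high cells.

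Between BCAM low and differentiated cells the largest positive differences were those of Pth (15.39) and Chga (12.03), which rest on library 7 in BCAM low cells, Spink5 (9.40), Postn (8.93) and Bpifb1 (8.04). Spink5 and Postn were at 0 CPM in all 3 differentiated libraries of batch 2, and Postn had counts in 1 BCAM low library of batch 2, at 6.03 CPM. Bpifb1 was at 3513 to 7679 CPM in differentiated batch 1 and at 286, 863 and 3712 CPM in batch 2. The most negative were Bpifb9a (−10.73), Hc (−10.25), Pde7b (−8.90), Espn (−8.26) and Cnr1 (−7.86); Hc, Pde7b, Espn and Cnr1 were at 0 CPM in all 3 BCAM low libraries of batch 2, and the fitted values of these 5 depend on the prior count. Bpifb9a lost its call in 25 of 31 settings, among them leaving out any 1 BCAM low library, and was at −6.33 (adjusted p = 0.11) without differentiated library 8. Hc lost its call in 6 settings (adjusted p up to 0.12), and Cnr1 in 1, without differentiated library 7 (adjusted p = 0.051). Without BCAM low library 7, Pth was at 4.35 (adjusted p = 1.00) and Chga at 5.06 (adjusted p = 0.72), and without BCAM low library 8, Postn was at 3.37 (adjusted p = 1.00), 1 of 7 settings in which it lost its call. In differentiated batch 2 Pde7b was at 23.2, 30.9 and 43.3 CPM, Espn at 10.2, 11 and 17.7 CPM, and Bpifb9a at 0, 4.62 and 152 CPM.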

How the results depend on the processing

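Between the batches of BCAM low cells 1224 genes were called; limma on TPM called 460 with a pseudocount of 0.1, of which 404 were among the 1224, and 561 with 1, of which 467 were; without 1 library the count was 608 to 1300, with 608 without library 6 and 705 without library 7. The cause was not tested. The other settings gave 1116 to 1547 calls, thinning to equal depth 1121. Calls within the gene lists numbered 150, and 90 with limma on log2(TPM + 0.1). Of 95 named genes called, 51 kept their call under every setting, 38 lost it with limma on TPM and 28 when a library was left out, most often library 7 (22 genes) or library 6 (21 genes). Krt14 had log2 differences of −0.72 to 0.087 without 1 library and changed sign without library 7 (0.087, adjusted p = 0.90). The 133 genes that differed from BCAM high cells became 256 with DESeq2, 267 with no filter on low counts and 59 to 165 without 1 library; the cause was not tested. The 1382 that differed from differentiated cells became 713 and 865 with limma on TPM, and 813 (without differentiated library 7) to 1935 (without differentiated library 8) without 1 library. The replicate block (title numbers) gave 192 (132 positive, 60 negative, against 112 and 21 with no block) and 1788 (1052 positive, 736 negative), and 4 named calls were lost with the block, those of Fam199x, Bpifb9a, Postn and Pth. The labels do not say whether same-numbered libraries share animals. They were not treated as pairs in the main fit, since not every pair exceeded the chosen correlation of 0.1. This cut does not decide whether animals were shared, and most libraries correlated best with their own number. Deviations from group means correlated at 0.0417 to 0.164 with BCAM high cells (7 of 8 highest with their own number, 3 over 0.1) and at 0.0237 to 0.168 with differentiated cells (5 of 8, 1 over 0.1). Leaving out 1 library left batch differences of −1841687 to −1455950 for total counts, −2773 to −2182 for genes detected and −3.36 to −2.33 percentage points for mitochondrial counts, with p of at least 0.0571 because fewer libraries allow no smaller. Depth limits genes under about 1 CPM, where a library holds few counts.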
